A study of Mus musculus with 8 samples.

Results

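Open chromatin that was stronger with both forms of Ezh2 was described in retinal ganglion cells (RGCs) after optic nerve crush (ONC). The regions came from 8 lists of ATAC-seq peaks, 1 per library. On chromosomes 1 to 19, peaks overlapping by 1 bp or more across the lists were merged into 186387 regions, of which 68278 held a peak in every list and are called shared regions. In each list, the fold of a peak, the pileup at its summit over the local background of that library, was turned into a percentile among all peaks of that list. A region was kept when its percentile in every GFP library lay below that in every Ezh2 and Ezh2-Y726D library, and when the GFP mean lay at least 15 points below the mean of each other group. This rule left 1614 regions, 2.36% of the shared regions, which are called the selected regions. Without GFP replicate 3 the same rule chose 3723. Because percentiles of GFP against both Ezh2 forms chose them, all such contrasts in these regions are descriptions and were not tested. The mirror rule, with GFP above all other libraries, chose 770 shared regions.

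All mice were adult C57BL/6J mice that received an adeno-associated virus (AAV2) in the vitreous body, had the optic nerve crushed 2 weeks later and were examined 3 days after the crush. The virus carried GFP as the control (3 libraries), Ezh2 (3 libraries) or Ezh2-Y726D, in which an aspartate replaces a tyrosine and which has lost its methyltransferase activity (2 libraries). Each library came from 50000 live cells sorted for the surface protein CD90.2 (Thy1), so every group carried virus and injury, and no uninjured or uninfected cells were compared. How many mice went into a library is not given in the sources used here, so the spread between libraries may be partly technical.

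Ezh2 is the catalytic subunit of Polycomb repressive complex 2 (PRC2), which methylates lysine 27 of histone H3 and keeps developmental genes silent. ATAC-seq reads chromatin that a transposase can enter, mostly promoters and enhancers. Promoters are open in many cell types, whereas enhancers inside introns and between genes differ more from cell type to cell type. A higher fold shows that more of the library's fragments ended there relative to the surroundings. In sorted cells it cannot be told apart whether more cells had the region open or whether the same cells had it more open.

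Start sites of genes were rare in the selected regions, so the sequences at those start sites are shown first. RefSeq windows of GRCm38.p6, which run from 250 bp before to 50 bp after a start, lay whole inside 17 selected regions (18 windows, 8 of them of protein-coding genes). The 250 bases before the start are printed for the 6 windows whose regions had the widest gap, that is the lowest Ezh2 or Ezh2-Y726D percentile minus the highest GFP percentile. The window of Rbp3 was added after its values were seen, because it is a photoreceptor gene. Capitals mark matches, on either strand, to CCAAT (the box of that name), CAGNTG (the E-box of bHLH factors), CACGTG (the E-box with a central CG), GAAANNGAA (interferon response), TGANTCA (AP-1), TATAAA (the TATA box), TAATCC (OTX and CRX), TAATTA (homeobox) and CCGGAAG (ETS). Sequences run 5′ to 3′ on the strand of the gene.
Uqcc3: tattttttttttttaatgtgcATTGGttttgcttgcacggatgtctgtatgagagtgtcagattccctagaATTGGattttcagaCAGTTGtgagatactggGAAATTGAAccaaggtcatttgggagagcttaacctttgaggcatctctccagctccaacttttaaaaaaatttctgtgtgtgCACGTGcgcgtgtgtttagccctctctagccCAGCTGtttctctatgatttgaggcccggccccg
Mgst2: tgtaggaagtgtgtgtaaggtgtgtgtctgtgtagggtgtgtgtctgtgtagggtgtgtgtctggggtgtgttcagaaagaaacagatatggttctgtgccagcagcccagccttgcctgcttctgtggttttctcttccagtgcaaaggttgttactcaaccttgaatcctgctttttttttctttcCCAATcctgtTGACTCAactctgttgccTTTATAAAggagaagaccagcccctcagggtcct
Gm35409: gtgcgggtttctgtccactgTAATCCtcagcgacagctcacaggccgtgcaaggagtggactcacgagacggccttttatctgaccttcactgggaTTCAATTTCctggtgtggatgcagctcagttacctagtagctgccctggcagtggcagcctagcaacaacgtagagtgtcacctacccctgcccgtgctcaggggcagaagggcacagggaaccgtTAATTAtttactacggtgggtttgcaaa
Cacna1c: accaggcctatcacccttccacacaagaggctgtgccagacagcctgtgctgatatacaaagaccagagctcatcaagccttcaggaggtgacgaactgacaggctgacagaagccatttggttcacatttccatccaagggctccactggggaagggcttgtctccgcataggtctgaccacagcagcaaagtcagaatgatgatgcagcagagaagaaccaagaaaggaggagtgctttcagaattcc
Smug1: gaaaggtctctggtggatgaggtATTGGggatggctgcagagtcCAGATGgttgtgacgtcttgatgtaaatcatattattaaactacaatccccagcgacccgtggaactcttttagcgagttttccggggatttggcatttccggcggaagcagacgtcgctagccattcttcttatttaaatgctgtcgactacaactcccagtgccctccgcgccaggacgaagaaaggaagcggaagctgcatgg
C1qtnf3: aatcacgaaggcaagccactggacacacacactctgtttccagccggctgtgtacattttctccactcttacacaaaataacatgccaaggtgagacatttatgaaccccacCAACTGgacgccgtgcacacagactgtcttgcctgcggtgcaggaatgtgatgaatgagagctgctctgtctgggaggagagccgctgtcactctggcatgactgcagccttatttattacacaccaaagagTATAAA
Rbp3: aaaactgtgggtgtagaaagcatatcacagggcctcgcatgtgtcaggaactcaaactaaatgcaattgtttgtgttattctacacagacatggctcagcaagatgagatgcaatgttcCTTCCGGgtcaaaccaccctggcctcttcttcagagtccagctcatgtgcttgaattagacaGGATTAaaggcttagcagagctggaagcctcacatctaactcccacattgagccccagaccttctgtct

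The sequences lie at chr19:8880934-8881183 on the minus strand (Uqcc3), chr3:51660929-51661178 on the plus strand (Mgst2) and chr3:146038016-146038265 on the plus strand (Gm35409, a lncRNA). Those of Cacna1c and Smug1 lie at chr6:119196410-119196659 and chr15:103163285-103163534, both on the minus strand. C1qtnf3 and Rbp3 lie on the plus strand at chr15:10952082-10952331 and chr14:33953753-33954002. Over the 18 windows of 300 bp, CAGNTG was present in 14 (77.8%), against 51.4% of all 31396 autosomal windows and 44.1% of the windows inside any shared region. CACGTG, which shares bases with no match of CAGNTG, was present in 1 window (5.56%, against 7.14%). TAATCC, the core bound by the photoreceptor regulators OTX2 and CRX, was present in 3 windows (16.7%, against 7.07%), those of Gm35409, Gm42110 and Rbp3. The GC box GGGCGG was found in 6 windows (33.3%), against 36% of all windows and 65.9% of the windows inside shared regions. Median GC content was 52.1% in the 18 windows and 62.3% in the windows inside shared regions. The CCAAT box was in 33.3% of the 18 windows against 37.3% of all windows, the TATA box in 11.1% against 13.6%, TGANTCA in 5.56% against 7.85%, CCGGAAG in 5.56% against 9%, TAATTA in 5.56% against 5.26% and GAAANNGAA in 16.7% against 8.52%. Among the windows inside shared regions, CACGTG was in 10.1%, TAATCC in 5.34%, the CCAAT box in 36.9% and the TATA box in 5.9%. TGANTCA was in 4.69% of them, CCGGAAG in 17.0%, TAATTA in 2.1% and GAAANNGAA in 6.24%. The TATA box and TGANTCA were thus below their share of all windows but above that inside shared regions. With 18 windows, 1 window is 5.56%, and these shares are descriptions of the letters only.

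The selected regions were weak peaks in GFP and peaks of middle rank with both Ezh2 forms. The median percentile of the 1614 regions was 38.9, 35.4 and 43.9 in GFP replicates 1, 2 and 3. It was 65.1, 65.2 and 70.7 in Ezh2 replicates 1, 2 and 3, and 71.1 and 71.7 in Ezh2-Y726D replicates 1 and 2. Over all shared regions the median lay between 66.7 and 71.8 in each library, so the selected regions stood well below the shared regions in GFP and close to them in the other 5 libraries. On the fold scale, the medians were 4.24, 4.34 and 4.43 in GFP, 5.91, 5.77 and 5.95 with Ezh2, and 6.79 and 6.74 with Ezh2-Y726D. Per region, the ratio of mean fold had a median of 1.34 for Ezh2 over GFP and 1.51 for Ezh2-Y726D over GFP, against 0.992 and 1.05 over all shared regions. The largest ratios in a selected region were 2.04 and 2.47.

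**Figure D1:**
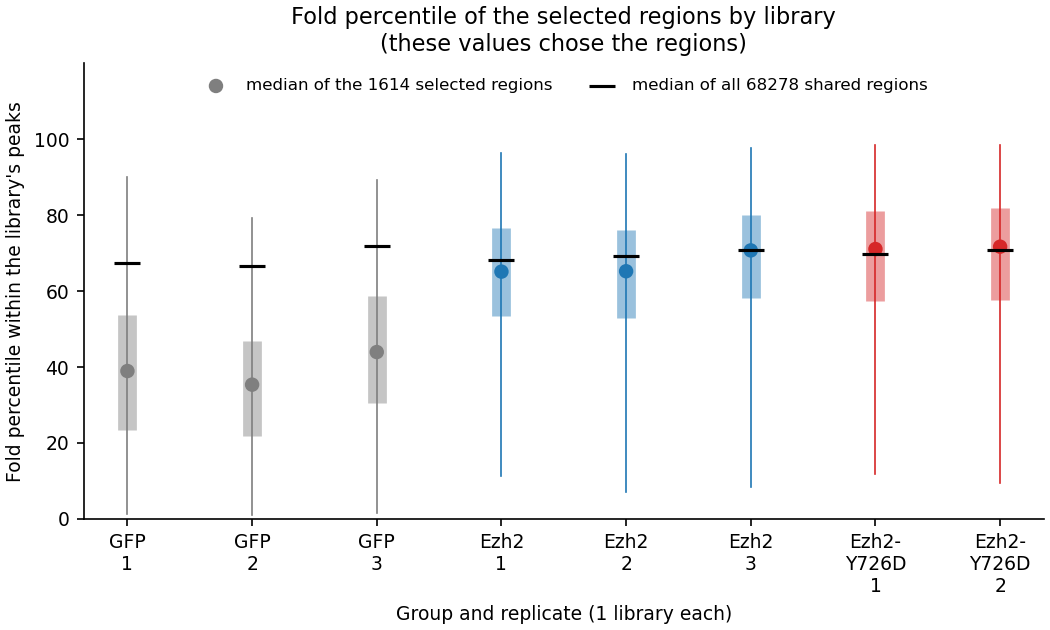
Fold percentile of the 1614 selected regions in each of the 8 libraries (y axis, percentile among the peaks of the library). Dots are medians, thick bars run from the first to the last quartile boundary, thin lines from lowest to highest, and black dashes are medians of all 68278 shared regions. The dots of the 3 GFP libraries sit between 35.4 and 43.9, and those of the other 5 between 65.1 and 71.7.

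The mean percentile was higher than in GFP by a median of 24.9 points with Ezh2 and 28.1 points with Ezh2-Y726D, against 0.53 and 0.28 points over all shared regions. The gap between the lowest Ezh2 or Ezh2-Y726D library and the highest GFP library was small for most regions, with a median of 6.73 points. It was 10 points or more in 488 regions and 20 points or more in 90. A step of 1 read at the summit moved the percentile by 5.18, 5.82 and 3.95 points in GFP replicates 1, 2 and 3 and by 2.26 to 2.92 points in the other libraries, so the median gap is close to the weight of a single read. Peaks in the selected regions were broader, with a median width ratio of 1.25 (Ezh2 over GFP) and 1.41 (Ezh2-Y726D over GFP), against 1.01 and 1.01 over all shared regions. In the mirror set the ratios were 0.777 and 0.731. Width and fold were read from the same peaks, so the width is not a result separate from the rule. Summits lay within 200 bp of each other in all 8 lists in 61.1% of the selected regions, against 68.2% of all shared regions, and more than 500 bp apart in 7.68%.

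The widest gaps lay mostly inside long genes, far from their ends. The widest was in Cpne8, which codes for a calcium-dependent membrane-binding protein, at chr15:90624212-90625026, 54362 bp from the nearer gene end. Its percentiles were 20.0, 15 and 23.4 in GFP, 74.5, 65.2 and 69.8 with Ezh2, and 82.6 and 85.0 with Ezh2-Y726D. The corresponding folds were 3.53, 3.53 and 3.59, then 6.84, 5.77 and 5.89, then 8.26 and 8.49, so every library of either form lay far above every GFP library, with a gap of 41.8 points. A region between genes at chr5:80496882-80497397, with the snRNA gene Gm22974 as the nearest at 396257 bp, had percentiles of 20.0, 35.3 and 29.0 in GFP, 78.5, 77 and 76.5 with Ezh2, and 84.3 and 86.3 with Ezh2-Y726D. The region 7045 bp from Lrrc3c, at chr11:98606631-98607262, had percentiles of 15.5, 16.9 and 13.4 in GFP, 66.4, 69.5 and 65.4 with Ezh2, and 55.1 and 56.2 with Ezh2-Y726D. In the first 2 of these regions Ezh2-Y726D was the higher of both forms, and in the last Ezh2 was.

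Further regions among the 12 with the widest gaps are given with the roles of their genes. Sdk2, a synaptic adhesion molecule of the retina, held a region at chr11:114037833-114038455 with percentiles of 11.7, 7.73 and 10.4 in GFP, 70.7, 57.9 and 75.6 with Ezh2, and 54.7 and 44.1 with Ezh2-Y726D. Tenm3, a teneurin that takes part in wiring the visual pathway, held a strong region at chr8:49348446-49349714 with percentiles of 53.6, 46.7 and 48.0 in GFP, 93.6, 86.4 and 94.8 with Ezh2, and 94.8 and 83.5 with Ezh2-Y726D. At this Tenm3 region the folds were 4.94, 4.88 and 4.64 in GFP, 10.4, 8.31 and 10.0 with Ezh2, and 11.4 and 8.25 with Ezh2-Y726D. Of the 12, this was the only region above the median of the shared regions in all 5 libraries of both forms by more than 10 points. Prkg1, a cGMP-dependent protein kinase, held a region at chr19:31057028-31057984 with percentiles of 8.60, 15 and 17.8 in GFP, 57.4, 62.2 and 69.8 with Ezh2, and 51.1 and 50.4 with Ezh2-Y726D. Sorbs2, an adaptor of the actin cytoskeleton, held a region at chr8:45765421-45766607 with 9.97, 10.2 and 5.20 in GFP, 47.4, 64.4 and 75.5 with Ezh2, and 56.1 and 45.1 with Ezh2-Y726D. The Ezh2 libraries spread over more than 25 points at Sorbs2, whereas the GFP libraries stayed within about 5.

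The other 5 of the 12 were in Chst8 (a sulfotransferase), Pla2g6 (a phospholipase) and Lrig2 (a transmembrane protein with leucine-rich repeats), and near the pseudogene Gm5361 and the lncRNA gene 1700052H01Rik. Their gaps ran from 28.1 points at Lrig2 to 36.3 points at Chst8. At Pla2g6 the Ezh2 libraries disagreed, with 57.4, 55.5 and 84.8, beside 78.6 in both Ezh2-Y726D libraries and 26.5, 15 and 23.4 in GFP.

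**Figure D2:**
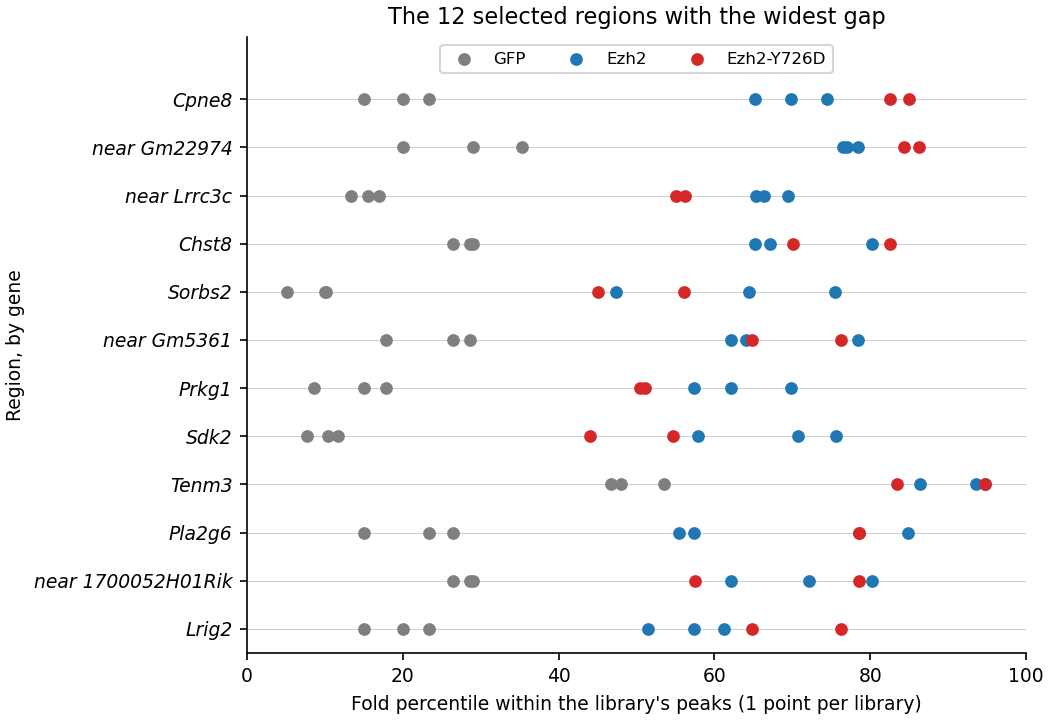
Fold percentile (x axis, among the peaks of the library) of the 12 selected regions with the widest gap, 1 row per region and 1 point per library, coloured by group. GFP points lie left of all other points in each row because the rule required it, and the gaps run from 28.1 points at Lrig2 to 41.8 points at Cpne8.

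To read the difference in libraries whose percentiles had not chosen the regions, the rule was applied with 1 library of each group left out. This was done in all 18 ways, and the 3 left-out libraries were then compared. Only shared regions were used, so a peak in the left-out libraries was still required. The rule then chose from 1859 to 4791 of the shared regions. In the left-out libraries, Ezh2 was higher than GFP by a median of 3.51 to 22.7 points, and the middle of the 18 choices was 12.4 points. Ezh2-Y726D was higher than GFP by 8.96 to 23.6 points, with a middle of 18.3. Over all shared regions the same differences ran from −0.976 to 1.86 and from −0.895 to 1.05 points. Both forms stayed above GFP in all 18 choices, by less than the 24.9 and 28.1 points in the libraries that had chosen the regions. The 18 choices reuse the same libraries, with 1 Ezh2-Y726D library in each choice, so they are not independent of each other. The size rested on which GFP library was left out. With GFP replicate 3 left out, the medians were 3.51 to 9.54 points (Ezh2) and 8.96 to 10.1 points (Ezh2-Y726D), and with GFP replicate 1 or 2 left out they were 11.7 to 22.7 and 17.1 to 23.6 points. GFP replicate 3 had the longest list of the GFP group (133674 peaks, against 115710 and 112939) and the highest background pileup (3.74 reads, against 3.25 and 2.69), and the part of depth in this difference was not tested.

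With a single library left out, the share of chosen regions in which it lay on the chosen side of every library of the other side was also counted. The other side had taken part in the choice here, so this share is not free of the rule. It was 65.1% for GFP replicate 1 (20.1% over all regions with a peak in the other 7 lists), 66.2% for GFP replicate 2 (22.7%) and 46.9% for GFP replicate 3 (12.3%). The Ezh2 libraries reached 71.8% (27.8%), 72.8% (30.1%) and 89.4% (34.8%) for replicates 1, 2 and 3. Ezh2-Y726D replicates 1 and 2 reached 83.2% (31.3%) and 86.5% (32%). A left-out library without a peak in a region was counted as not on the chosen side, for GFP as well. This held for 213 of 2340 chosen regions at GFP replicate 1, 362 of 2139 at replicate 2 and 51 of 3723 at replicate 3. In the Ezh2 and Ezh2-Y726D libraries it held for 7 to 42 regions. The GFP shares are thus lower than if a missing peak counted as a low value. More than 1 in 2 of the regions chosen without GFP replicate 3 did not have that library below all others.

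**Figure D3:**
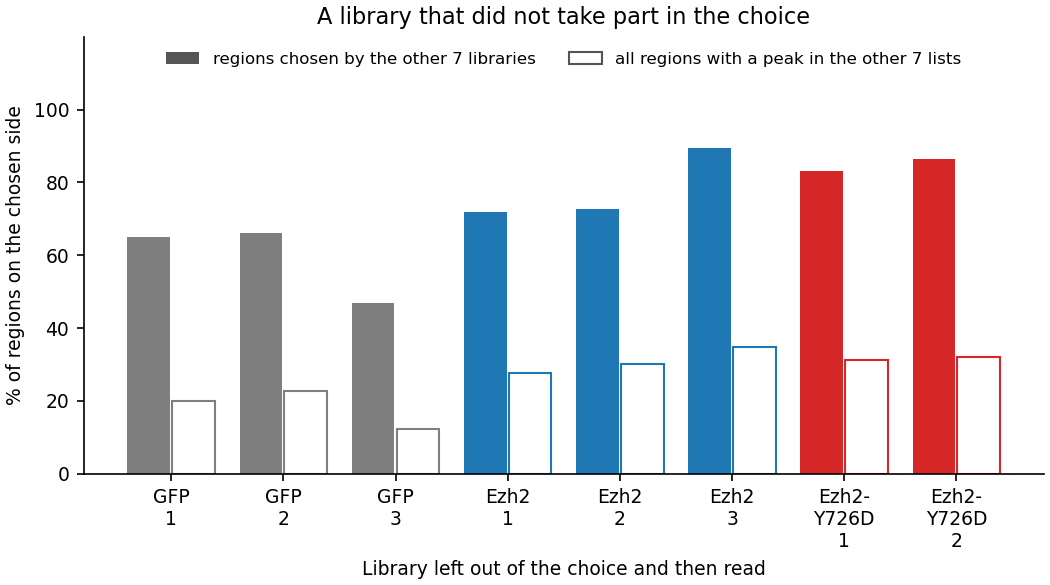
Share of regions (y axis, %) in which a library left out of the choice lay on the chosen side of every library of the other side, for each of the 8 libraries. Filled bars are regions chosen by the other 7 libraries and open bars are all regions with a peak in the other 7 lists. A library without a peak in a region counts as not on the chosen side. Filled bars range from 46.9% (GFP replicate 3) to 89.4% (Ezh2 replicate 3), and open bars from 12.3% to 34.8%. The other side had taken part in the choice, so the filled bars are not free of the rule.

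Selected regions lay away from gene ends more often than shared regions did. Of the 1614, 119 (7.37%) lay within 1 kb of either end of a RefSeq gene, against 26.4% of all shared regions and 12.5% of the mirror set. Inside genes, farther than 1 kb from an end, lay 938 (58.1%, against 48.0%), and between genes 557 (34.5%, against 25.6%). A start site lay within 1 kb of 50 of the 1548 selected regions on chromosomes with a start table (3.23%, against 19.4% of the shared regions), and 27 regions held a start (1.74%, against 17.3%). The median distance to the nearest gene end was 17340 bp for the selected and 7600 bp for all shared regions. Counted per region, the gene around a selected region had a median length of 140625 bp, against 77352 bp for all shared regions inside genes. A gene with several regions counts several times in these medians.

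Since strong peaks lie at gene ends more often than weak ones, the shares were also compared within bands of the mean GFP percentile. In the band from 0 to 25, 8.82% of 340 selected regions lay at a gene end, against 18.6% of all shared regions. From 25 to 50 it was 7.31% of 834 against 14.8%, and from 50 to 75 it was 6.44% of 435 against 19.1%. Only 5 selected regions lay above 75, of which 0 were at a gene end, which is too few for a share. The lower share at gene ends was therefore present in all 3 bands that could be read. It was not particular to the selected regions. From 50 to 75 the mirror set had 10.9% at a gene end, and above 75 it had 13.1%, against 19.1% and 39.8% of all shared regions. From 25 to 50 the mirror set had 14.3%, near the 14.8% of all shared regions. Within the bands the excess was between genes, with 25.6%, 34.5% and 41.6% of the selected regions against 13.1%, 24.5% and 29.0%, whereas the shares inside genes (65.6%, 58.1% and 52.0%) were close to those of all shared regions (68.3%, 60.7% and 51.9%).

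**Figure D4:**
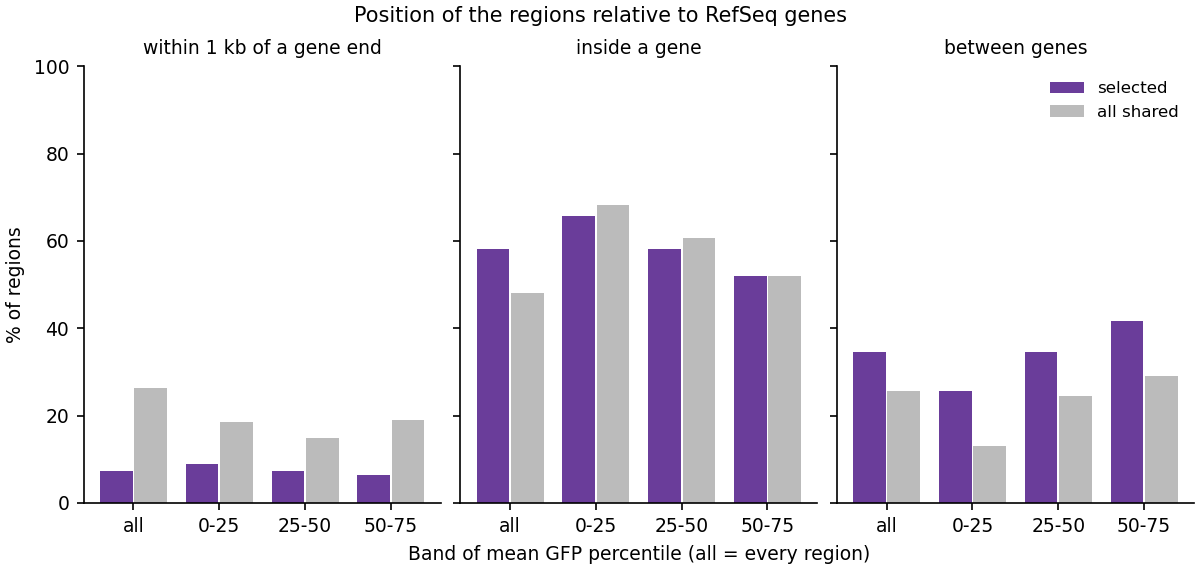
Share of regions (y axis, %) within 1 kb of a gene end, inside a gene and between genes, for the selected and all shared regions, over all regions and in 3 bands of mean GFP percentile (x axis). The selected bars are the lower ones in the gene-end panel (7.37% against 26.4% over all) and the higher ones in the panel of regions between genes (34.5% against 25.6%).

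The few selected regions at the starts of protein-coding genes varied in their differences. The mean percentile exceeded that of GFP by 16.1 points (Cacna1c, Ezh2) to 33.9 points (Epha1, Ezh2-Y726D). Not all of these starts lay at an end of the gene as RefSeq places it. The regions at Mgst2, Smug1 and Cacna1c lay 20226, 5181 and 473 bp from the nearer gene end. Uqcc3, an assembly factor of the mitochondrial respiratory chain whose upstream sequence is printed above, had percentiles of 63.8, 58.3 and 59.8 in GFP, 81.2, 81.6 and 84.5 with Ezh2, and 82.1 and 82.6 with Ezh2-Y726D. All 5 libraries of both forms lay within 4 points of each other there. Mgst2, a microsomal glutathione transferase, had 17.8, 9.25 and 21.6 in GFP, 35.4, 44.7 and 48.1 with Ezh2, and 49.8 and 34.7 with Ezh2-Y726D. Cacna1c, the pore subunit of an L-type calcium channel, had 72.6, 72.3 and 69.5 in GFP, 82.4, 89.4 and 91.0 with Ezh2, and 92.9 and 90.6 with Ezh2-Y726D, the highest level of these starts in every library. The window of Cacna1c printed above held none of the motifs searched before the start. Smug1 (a uracil-DNA glycosylase), C1qtnf3 (a secreted protein), Pgam2 (the muscle form of phosphoglycerate mutase), Epha1 (an ephrin receptor) and Rbp3 had gaps of 9.24, 7.64, 5.98, 4.86 and 4.66 points. Despite the small gaps, mean differences from GFP were 31.8 (Ezh2) and 33.9 points (Ezh2-Y726D) at Epha1, and 27.4 and 30 at C1qtnf3. The medians of all selected regions were 24.9 and 28.1 points. In the other regions at these starts, at least Ezh2-Y726D lay below its median.

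Of the cell type lists, that of rod genes had the largest share of selected regions. Of 46 shared regions inside or within 1 kb of 19 rod genes, 6 were selected (13.0%, against 2.36% of all shared regions), each in another gene. The mirror rule, which chose 770 of all 68278 shared regions, chose 4 of the same 46, so rod regions were more frequent than over all shared regions in both sets. At Gnat1, the alpha subunit of rod transducin, the region at chr9:107675678-107676666 had percentiles of 9.44, 13.4 and 37.8 in GFP, 75.6, 77.5 and 77.3 with Ezh2, and 66.7 and 53.9 with Ezh2-Y726D. GFP replicate 3 stood apart from the other GFP libraries there and was still 16 points below the lowest of the others. Grk1, a kinase of the phototransduction cascade, had 30.3, 19.3 and 45.3 in GFP, 61.9, 71.0 and 70.9 with Ezh2, and 73.2 and 68.2 with Ezh2-Y726D.

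Further rod regions were in Pde6b (a subunit of the rod phosphodiesterase), Cngb1 (a subunit of the rod cGMP-gated channel) and Prph2 (a protein of the outer segment disc), with gaps of 16.3, 9.94 and 7.35 points. Pde6b had 23.2, 48.5 and 56.6 in GFP, 84.9, 79.3 and 85.3 with Ezh2, and 84.9 and 72.9 with Ezh2-Y726D. Of the 46 rod regions, 34 had a higher mean percentile with Ezh2 than GFP, 22 with Ezh2-Y726D than GFP and 20 with both, and the medians of the differences were 4.51 and −0.26 points. A peak at a gene end was present for 17, 17 and 17 of the 19 rod genes in GFP, 15, 16 and 15 with Ezh2, and 14 and 17 with Ezh2-Y726D. Their summed fold was 88.8 to 99.9 in GFP, 85.4 to 93.5 with Ezh2 and 69.1 to 91.0 with Ezh2-Y726D, and Gngt1 and Rp1 had no peak at a gene end in any library. Rod markers were thus present in cells sorted as RGCs in every group and were not more frequent at gene ends with either form, and the part of photoreceptor chromatin in the selected regions was not tested.

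Cone genes and other photoreceptor genes were added after the rod values were seen. They held 1 selected region of 39 (2.56%) and 4 of 70 (5.71%). The cone region lay in Cnga3, a subunit of the cone cGMP-gated channel, and had 47.8, 61.0 and 57.4 in GFP, 77.3, 76.3 and 79.4 with Ezh2, and 85.1 and 84.1 with Ezh2-Y726D. Of the 4 other photoreceptor regions, 2 lay in Rbp3, the retinoid carrier between photoreceptors and pigment epithelium. At the start of Rbp3, whose sequence is printed above, the percentiles were 17.5, 26.2 and 21.5 in GFP, 30.9, 45.4 and 44.7 with Ezh2, and 41.1 and 35.4 with Ezh2-Y726D, all below the medians of the shared regions. The mirror rule chose 6 of the 70 other photoreceptor regions, more than the rule itself.

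Of 58 shared regions of 19 genes that define RGCs, 0 were selected, beside 2.36% of all shared regions. RGC markers had a peak at a gene end for 18 or 19 of 20 genes in every library. Müller glia markers also held 0 of 42. The bipolar cell list held 1 of 97 (1.03%, in Neto1), the amacrine list 1 of 66 (1.52%, in Meis2), the endothelial list 2 of 34 (5.88%, in Erg and Robo4), the microglia and macrophage list 1 of 11 (9.09%, in Ly86) and the T cell list 0 of 38. At Robo4, an endothelial receptor, the percentiles were 33.0, 28.7 and 55.4 in GFP, 82.1, 67.9 and 74.4 with Ezh2, and 73.8 and 76.7 with Ezh2-Y726D. Most of these lists have so few shared regions that a single region moves their share by 1 to 9 points. A count of 0 or 1 in them, that of the RGC genes included, cannot be read against 2.36%.

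Of the lists of neuronal receptors and channels, voltage-gated ion channels held selected regions at 3.11%, near the 2.36% of all shared regions. For transmitter receptors and transporters the share was 4.39%. Whether either share departs from that of all shared regions was not tested. Transmitter receptors and transporters held 10 of 228 (4.39%), in 9 genes. The widest gap among them was in Grin2a, a subunit of the NMDA receptor, with percentiles of 61.2, 41.4 and 48.0 in GFP, 82.1, 80.5 and 81.8 with Ezh2, and 85.0 and 88.1 with Ezh2-Y726D. Grm7, a metabotropic glutamate receptor, had 49.1, 51.7 and 69.5 in GFP, 89.8, 85.1 and 87.2 with Ezh2, and 92.9 and 93.8 with Ezh2-Y726D. Others were in Gria1, Gria4, Grik2 and Grm8 (2 regions), further glutamate receptors, and in Glrb, a subunit of the glycine receptor. The mirror rule chose 0 of the 228.

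Voltage-gated ion channels held 11 of 354 shared regions (3.11%, near the 2.36% of all shared regions), in 8 genes. The calcium channel genes Cacna1c, Cacna1e, Cacna1g and Cacna2d3, the potassium channel genes Kcnc2, Kcnd3 and Kcnma1, and the sodium channel gene Scn2a held them. Inside Cacna1c, 196673 bp from a gene end, the region at chr6:118783913-118784695 had 38.9, 41.4 and 61.8 in GFP, 76.6, 82.2 and 81.8 with Ezh2, and 77.1 and 81.6 with Ezh2-Y726D, which makes Cacna1c the only gene of this list with a selected region both at a start and deep inside. Over the 354 regions, 199 had a higher mean with Ezh2 than GFP, 158 with Ezh2-Y726D than GFP and 99 with both, with medians of 1.23 and −1.05 points.

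Axon guidance genes held 10 of 312 (3.21%, against 2.36% of all shared regions), in 8 genes. Unc5c, a netrin receptor, held 2, and the one at chr3:141740769-141741376 had percentiles of 20.0, 21.7 and 17.8 in GFP, 53.5, 47.2 and 67.2 with Ezh2, and 78.6 and 79.1 with Ezh2-Y726D. Robo1, a Slit receptor, also held 2, and Ntn1 (the ligand netrin), Robo2, Unc5d, Ephb2, Sema3f and Sema5a held 1 each. Axon growth inhibitors and their receptors held 3 of 118 (2.54%), in Rtn4 (the myelin inhibitor Nogo), Tnr (tenascin-R) and Epha7. Both shares are near that of all shared regions. At Rtn4 the values were 31.0, 33.6 and 25 in GFP, 55.6, 53.4 and 72.7 with Ezh2, and 50.7 and 50.3 with Ezh2-Y726D.

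Among genes of the Polycomb machinery itself, 0 of 30 regions were selected for PRC2 and 0 of 57 for PRC1, its partner complex. With 2.36% of all shared regions selected, lists of this size are too small for a count of 0 or 1 to be read against that share. Developmental transcription factors and signals known as Polycomb targets held 1 of 46 (2.17%), at a gene end of Shh, the one where the lncRNA 9530036O11Rik starts. Whether this end is the start of Shh was not read, since the gene positions carried no strand. Injury factors of the AP-1 family and the like held 0 of 35, genes that promote axon growth 0 of 47, cell cycle inhibitors 0 of 18, and heat shock genes 1 of 19 (5.26%, in Bag3, a co-chaperone). At Bag3 the percentiles were 54.7, 49.4 and 26.1 in GFP, 68.3, 60.4 and 56.3 with Ezh2, and 63.7 and 69.2 with Ezh2-Y726D.

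**Figure D5:**
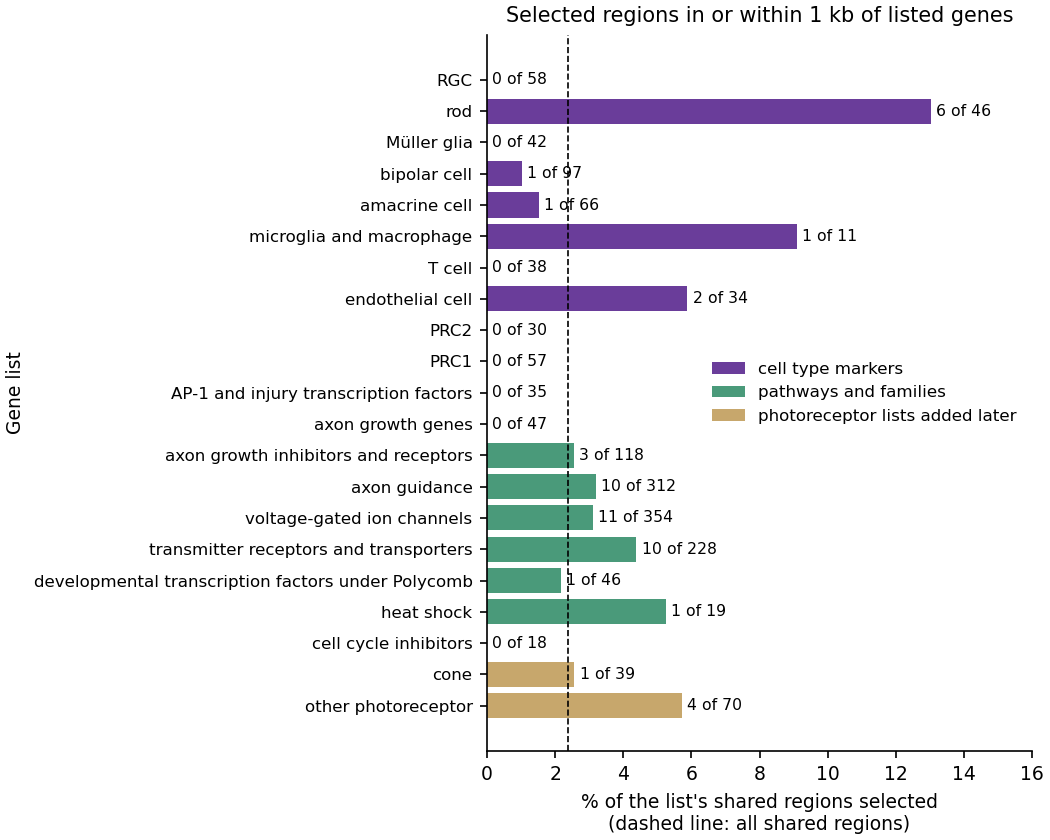
Share of the shared regions inside or within 1 kb of the genes of each list that were selected (x axis, %), with the counts beside the bars and the share over all shared regions (2.36%) as a dashed line. Rod genes have the longest bar (6 of 46), and 8 of the 19 lists that were not added later have none.

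The selected regions were spread thinly over the genome. Of all genes, 919 held at least 1 selected region inside, 102 held 2 or more and 11 held 3 or more. Carmil1, a regulator of actin capping, held 4 of its 19 shared regions, and Tenm3 held 4 of 45. The 4 regions of Tenm3 had mean percentiles of 50.3, 37.5, 39.4 and 49.4 in GFP and 80.5, 72.8, 66.6 and 91.6 with Ezh2. Cdh18 and Cntn5 (adhesion molecules of neurons), Dock1, Fmn1, Mtus2, Nav3, Psd3 and Vwa8 were among the 9 genes that held 3 each. A selected region had another selected region as the next shared region in 3.35% of cases, against 2.36% of all shared regions that were selected. Runs of 3 within 50 kb of each other were found in Carmil1 (43375 bp) and at Chsy1 and Gm33442 on chromosome 7 (47047 bp). By chromosome, the share of shared regions that were selected ran from 1.34% on chromosome 19 to 3.04% on chromosome 15. The chromosomes with the most gene ends among their shared regions, 11 (32.9%) and 19 (32.1%), had the lowest shares, 1.44% and 1.34%.

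The difference between both Ezh2 forms was the only group contrast in which the rule set no direction, and it was tested with limma over all 68278 shared regions. It is not fully free of the rule, which required both forms to exceed GFP. Of the 1614 selected regions, 9 (0.558%) were called higher with Ezh2 and 50 (3.10%) higher with Ezh2-Y726D, against 7.09% and 7.01% of all shared regions. The mean percentile was lower with Ezh2 than with Ezh2-Y726D in 1051 selected regions (65.1%) and in 49.0% of all shared regions. All 3 Ezh2 libraries lay below both Ezh2-Y726D libraries in 367 selected regions (22.7%, against 22.7% of all shared regions) and above both in 113 (7%, against 24.7%). Ranked by −log10 p in place of fold, 16 were called higher with Ezh2 and 22 higher with Ezh2-Y726D, beside 5844 and 3947 of all shared regions (4839 and 4784 when ranked by fold). The calls were 3 and 7 without Ezh2-Y726D replicate 1, beside 1936 and 1545 of all shared regions, and 1 and 9 without replicate 2, beside 2405 and 1693. They were 4 and 26 without Ezh2 replicate 1, beside 3255 and 3320 of all. Those higher with Ezh2-Y726D numbered 19 without Ezh2 replicate 2 (3766 of all) and 31 without Ezh2 replicate 3 (3817 of all). The calls over all shared regions thus fell as well with each of these libraries left out. The median difference on the scale of normal scores was −0.092 in the selected regions and 0.023 over all. So fewer selected than shared regions were called in either direction, and 1555 were called in neither, which does not show that both forms acted alike there.

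Among the regions higher with Ezh2-Y726D, the largest difference was in Dnah11, a dynein heavy chain of cilia, at chr12:118130893-118131687. Its percentiles were 53.5, 37.2 and 58.0 with Ezh2 and 82.6 and 91.5 with Ezh2-Y726D, over 20.0, 15 and 34.4 in GFP. The difference was −1.39 ± 0.24 (normal score, SE; limma adjusted p = 0.00532). In the lncRNA gene Gm38996 the percentiles were 33.5, 51.5 and 30.2 against 80.7 and 78.6 (−1.32 ± 0.23, limma adjusted p = 0.00596). Near Gbe1, the glycogen branching enzyme, they were 49.2, 47.2 and 61.3 against 91.9 and 82.0 (−1.31 ± 0.28, limma adjusted p = 0.013). The groups did not overlap at any of these 3 regions. Each missed the threshold without 1 of the Ezh2-Y726D libraries, with limma adjusted p = 0.0525 for Dnah11 (without replicate 2), 0.0523 for Gm38996 and 0.119 for Gbe1 (both without replicate 1).

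Among those higher with Ezh2, the largest was in Fam83a at chr15:57995715-57997206, with 84.0, 89.3 and 85.2 with Ezh2, 57.5 and 58.7 with Ezh2-Y726D, and 33.0, 28.7 and 34.4 in GFP (1.11 ± 0.18, limma adjusted p = 0.00376). Atxn1, the gene of a transcriptional co-regulator, held a region with 91.0, 89.1 and 91.6 against 72.7 and 64.1 (1.03 ± 0.19, limma adjusted p = 0.00707). Near the pseudogene Gm19111 the values were 85.1, 88.7 and 96.2 against 70.3 and 71.0 (0.99 ± 0.24, limma adjusted p = 0.0241). The Atxn1 region missed the threshold without Ezh2-Y726D replicate 2 (limma adjusted p = 0.064). The region near Gm19111 kept its call in 10 of 15 alternatives, and its limma adjusted p rose to 0.116 without Ezh2-Y726D replicate 1 and 0.113 without replicate 2. Of the regions in listed genes, those of Unc5c (−0.77 ± 0.21, limma adjusted p = 0.0385) and Robo1 at chr16:72840859-72841449 (−0.86 ± 0.24, limma adjusted p = 0.0379) passed the test, both higher with Ezh2-Y726D.

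Markers of immune cells moved with the comparison of both forms. Peaks at a gene end were present for 14, 13 and 17 of 20 markers of microglia and macrophages in GFP, 17, 15 and 16 with Ezh2, and 5 and 5 with Ezh2-Y726D, with summed folds of 68.2 to 84.7, 83.1 to 92.8 and 38.9 to 41.1. Of 20 T cell genes it was 19, 18 and 20, then 20, 20 and 20, then 9 and 8, with summed folds of 101 to 115, 106 to 121 and 45.7 to 51.2. In both Ezh2-Y726D libraries, 15 of the microglia and macrophage markers and 11 of the T cell genes had no peak at a gene end. Among them were Cx3cr1, Cd3g, Cd8a and Lck, which had one in at least 1 library of GFP and of Ezh2. P2ry12 went the other way, with none in any Ezh2 library and one in at least 1 library of GFP and of Ezh2-Y726D. Cd3d, Cd3e, Cd4 and Cd247 had one in at least 1 library of every group. Csf1r had none in GFP or Ezh2-Y726D, and Aif1 had none in any group. The part of these cells in the difference between both forms and in the selected regions was not tested.

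At the threshold of 15 points, regions on either side had nearly the same values. Just inside lay regions near Gm8219, in Ccbe1 and near Leo1, whose smaller mean difference rounded to 15 points. Just outside lay regions in Gm31842 and near Gm30154 and Irs2, at 15, 14.99 and 14.99 points. The region near Leo1 had 16.9, 24.7 and 32.1 in GFP, 36.8, 41.1 and 45.1 with Ezh2, and 38.7 and 40.5 with Ezh2-Y726D. The excluded region near Irs2 had 29.1, 7.24 and 25.5, then 29.2, 45.3 and 32.3, then 51.9 and 36. Its groups did not overlap either, and it was left out because its mean difference between Ezh2 and GFP was 14.99 points.

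The lists held 112939 to 133674 peaks in GFP, 126271 to 135895 with Ezh2, and 124666 and 128728 with Ezh2-Y726D. Two-sided exact permutation tests of the group means gave p = 0.3 for Ezh2 against GFP, p = 0.5 for Ezh2-Y726D against GFP and p = 0.6 between both forms. With 0.1 the smallest p possible, none of these tests could pass 0.05. The Ezh2 mean exceeded the GFP mean by 9130 peaks, and by 15580 without GFP replicate 3. Sequencing depth is unknown, and the background pileup recovered from the steps of low folds, 2.39 to 3.74 reads, served only as a relative index. It overlapped between the groups.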

How the data were processed

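ATAC-seq peak lists of 8 libraries (3 GFP, 3 Ezh2, 2 Ezh2-Y726D, grouped by sample title) were used. The authors called peaks in each library separately and deposited 1 list per library for GRCm38. Submitters' processing notes name cutadapt, Bowtie2, SAMtools, Picard, MACS2 and deepTools, without version or role, and the threshold is not given in the sources used here. The deposited fold is a ratio of summit pileup to local background in the library. The authors' peak caller also gave each peak a −log10 p-value, which served as another ranking measure, a −log10 q-value, which served as a filter, and a score, which was not used.

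Peaks were merged and ranked in Python 3.11.15 (pandas 2.3.3, scipy 1.17.1). Regions in all 8 lists were ranked by fold within their list, these ranks were replaced by normal scores, and groups were compared with limma 3.58.1 (lmFit and eBayes, all 8 libraries in 1 fit, Benjamini-Hochberg over 68278 regions, adjusted p under 0.05). The scripts were tested on simulated data. No read counts were used, so depth is unknown and no counting error could be given. Gene positions and start windows came from RefSeq GRCm38.p6. A gene end is either end, since that gene table carries no strand. Regions are named after the gene they lie in or the nearest gene. Named were the 12 selected regions with the widest gap, those at a start of a protein-coding gene, the 3 with the largest difference between both Ezh2 forms in each direction, those in listed genes, 3 on each side of the threshold, and the genes with the most regions, some of which are not reported here. The members and lists were chosen with earlier results of these data known, and the cone and other photoreceptor lists and the choice with 1 library of each group left out were added later. No genome sequence was used, so regions away from start windows were not searched for motifs. Alternatives were another ranking measure, scale, list length, q threshold, overlap, rule threshold, distance to genes, replicate block and leaving out each library.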

Additional observations from a re-analysis of the deposited data

Results flagged for a closer look

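At 6 selected regions the effects of both Ezh2 forms, each against the same GFP libraries, differed from each other by limma's test of Ezh2 against Ezh2-Y726D. On the scale of normal scores, Ezh2 minus Ezh2-Y726D was −1.39 in Dnah11, −1.32 in Gm38996 and −1.31 near Gbe1. It was 1.11 in Fam83a, 1.03 in Atxn1 and 0.99 near Gm19111. All 6 lay above GFP in both forms because the rule required it.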

How the results depend on the processing

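The number of selected regions was 1614 and fell to 1042 with peaks of −log10 q of at least 5, to 527 with peaks that covered 0.5 or more of the region, and to 1073 at a threshold of 20 points. It rose to 3159 without the condition on overlap, and was 1690 to 3723 with each library left out, the highest without GFP replicate 3. Ranking by −log10 p gave 1831, lists of equal length 1136 and a threshold of 10 points 2232. Percentiles among the shared regions gave 1618, of which 1190 were among the 1614.

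Regions called higher with Ezh2 than Ezh2-Y726D numbered 9, and 16 when ranked by −log10 p, and 1 to 11 with each library left out, the lowest without Ezh2-Y726D replicate 2 and 3 without Ezh2-Y726D replicate 1. Those called lower numbered 50, then 22 when ranked by −log10 p, 17 on the percentile scale, and 7 to 46 with each library left out (7 without Ezh2-Y726D replicate 1 and 9 without replicate 2). Without an Ezh2-Y726D library, the lone library was assumed to vary like the other groups. The cause was not tested.

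Replicate numbers gave at most a weak pairing of the libraries. By the numbers of the titles, deviations of same-numbered libraries correlated by −0.015 to 0.049, and not every library correlated best with its own number. Among the Ezh2 libraries, GFP replicates 1, 2 and 3 each correlated best with their own number (0.00536, 0.0328 and 0.049). By the numbers carried in peak names, same-numbered libraries correlated by 0.00269 to 0.049. With the replicate block, 5 regions were called higher and 35 lower. A block on the numbers carried in peak names was added after seeing the data, and with it 4 were called higher and 31 lower. The alternatives were not followed for the regions of Unc5c and Robo1.

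The share at a gene end was 7.37%, 14.5% within 3 kb (35.7% of all shared regions), 3.10% for protein-coding genes only (20.1%) and 3.23% for start sites within 1 kb (19.4%). The left-out Ezh2-Y726D libraries 1 and 2 reached 86.5% and 90.0% when ranked by −log10 p. Fam83a kept its call in all 14 alternatives. Dnah11, Gm38996, Gbe1, Atxn1 and Gm19111 lost it without an Ezh2-Y726D library, Gbe1 also on the percentile scale (adjusted p = 0.0627) and Gm19111 also on that scale (0.065) and with either block (0.061 and 0.0504). No result turned its direction. Without read counts, the weight of 1 read, 2.26 to 5.82 points, limits what a gap can show.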
